A study of Homo sapiens with 13 samples.

Results

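ABC drug efflux transporters are membrane pumps that use ATP to move drugs and drug conjugates out of cells. The 7 described here, ABCB1, ABCG2, ABCC1, ABCC2, ABCC3, ABCC4 and ABCC5, were taken by gene symbol from the 62703 genes of the count tables, and all 7 were found in both tables. RNA was sequenced from 13 libraries of 2 ovarian carcinoma cell lines. In SKOV3, a line known for an amplified ERBB2 gene, 3 libraries came from cells overexpressing RSF1, 3 from cells overexpressing RSF1delUAB and 3 from cells with a control vector. In OVCAR3, a line from a serous carcinoma, 2 libraries came from cells expressing a UAB peptide and 2 from cells with a scrambled control, all given 2000 ng/mL doxycycline for 6 days before harvest. The labels give no treatment for SKOV3, and whether each group was 1 clone or a pool is not given in the sources used here. Nothing in the labels says that replicates were separate cultures, so p-values measure only the spread between these libraries, which may be technical.

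RSF1 is a histone chaperone that remodels chromatin together with the ATPase SMARCA5, and its UAB region binds ubiquitinated histone H2A. It is known in ovarian cancer for its link to drug resistance, which gives the question asked of the transporters. ABCB1 (P-glycoprotein) and ABCG2 (breast cancer resistance protein) export many uncharged or amphipathic drugs, among them taxanes for ABCB1 and topotecan for ABCG2. ABCC1, ABCC2 and ABCC3 export organic anions such as glutathione and glucuronide conjugates, and ABCC4 and ABCC5 export cyclic nucleotides and nucleotide analogs.

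The libraries held 15194678 to 18748009 counts in SKOV3 and 18160558 to 24026993 counts in OVCAR3. Levels are CPM, read counts divided by the library total after TMM scaling. As a check of the labels, RSF1 itself stood at 631 to 775 CPM in RSF1 libraries, 459 to 509 CPM in RSF1delUAB libraries and 42.2 to 47.5 CPM in control libraries. In OVCAR3 its ranges overlapped, at 586 to 787 CPM with the UAB peptide and 564 to 707 CPM with the scrambled control, so it does not check those labels. All 6 epithelial markers (EPCAM, CDH1 and 4 keratins) had counts in every group, although CDH1 stayed at 0.106 to 1.08 CPM across SKOV3. They summed to 1304 to 1544 CPM with RSF1, 1352 to 1452 CPM with RSF1delUAB and 807 to 849 CPM with control vector. KRT18 went against these sums and was lower with both constructs. In OVCAR3 the sums were 6997 to 8009 CPM with the UAB peptide and 7865 to 8332 CPM with the scrambled control. There KRT7 and KRT19 were lower with the UAB peptide, EPCAM and KRT18 were higher, and KRT8 and CDH1 overlapped. The 4 serous markers, mostly PAX8 in SKOV3, summed to 371 to 423 CPM with RSF1, 281 to 295 CPM with RSF1delUAB, where MUC16 was at 0, and 505 to 528 CPM with control vector. In OVCAR3 their sums were 1525 to 1968 CPM with the UAB peptide and 1034 to 1503 CPM with the scrambled control. The members went different ways there: MUC16 and WT1 were higher with the UAB peptide, and PAX8 overlapped. MSLN was lower, at 97.7 to 108 CPM against 202 to 210 CPM. The summed level of ERBB2 and GRB7 was 2282 to 2945 CPM in RSF1 libraries, 7618 to 8117 CPM in RSF1delUAB libraries and 8185 to 8881 CPM in control libraries. Most of it was ERBB2, at 2139 to 2816, 7293 to 7794 and 8031 to 8723 CPM in these groups. GRB7 went another way with RSF1delUAB, at 127 to 143 CPM with RSF1, 323 to 326 CPM with RSF1delUAB and 154 to 158 CPM with control vector. The 4 fibroblast markers summed to 50.7 to 52.4 CPM with RSF1, 118 to 129 CPM with RSF1delUAB and 6.22 to 7.23 CPM with control vector, and DCN and LUM were among those that differed. In OVCAR3 they summed to 40.8 to 53.5 CPM with the UAB peptide and 48.7 to 49.6 CPM with the scrambled control. LUM was at 0 in both UAB libraries, and COL1A2 was at 4.51 to 5.35 CPM against 12.2 to 13.3 CPM with the scrambled control. Endothelial markers summed to 0.196 to 0.318 CPM with RSF1, 0.266 to 0.308 CPM with RSF1delUAB and 1.49 to 3.72 CPM with control vector, and to 7.26 to 8.38 CPM with the UAB peptide and 6.44 to 6.67 CPM with the scrambled control. Immune markers summed to at most 0.762 CPM in SKOV3 and 1.5 CPM in OVCAR3. Of the liver and kidney markers, SLC22A6 and UMOD were at 0 in every library. ALB had counts in every group and reached 0.566 CPM in SKOV3 and 0.983 CPM in OVCAR3. The part of these marker differences in the transporter results was not tested.

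Sequences before a RefSeq transcript start of the 3 transporters with the largest changes are shown so that the elements discussed for these genes can be read. For ABCB1 and ABCG2 that start is internal: their stretches lie inside the annotated gene spans, far from the outermost 5′ ends. They come from RefSeq windows on GRCh38.p14, of which there are entries for 5 of the 7 transporters, not for ABCC1 and ABCC3. Each stretch is written 5′ to 3′ on the gene's strand and holds the bases of the window before the nearest exon of the deposited tables. Capitals mark a CCAAT box (CCAAT) in ABCB1 at chr7:87601079-87601134, a TATA box (TATAAA) in ABCC2 at chr10:99782390-99782639, and, in order, a xenobiotic response core (GCGTG), a GC box (GGGCGG) and an E box (CACGTG) in ABCG2 at chr4:88159025-88159159.
ABCB1: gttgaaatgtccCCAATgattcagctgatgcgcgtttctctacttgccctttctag
ABCC2: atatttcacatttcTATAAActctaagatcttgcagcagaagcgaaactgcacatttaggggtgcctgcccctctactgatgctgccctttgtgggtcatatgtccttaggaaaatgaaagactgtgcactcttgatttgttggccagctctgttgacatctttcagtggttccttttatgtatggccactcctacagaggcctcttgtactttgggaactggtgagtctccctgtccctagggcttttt
ABCG2: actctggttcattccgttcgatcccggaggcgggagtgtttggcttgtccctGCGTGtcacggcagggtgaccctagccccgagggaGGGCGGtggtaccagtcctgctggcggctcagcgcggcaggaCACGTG

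Counted back from the RefSeq transcript start, the CCAAT box of ABCB1 begins at position -238, the TATA box of ABCC2 at -236, and the 3 elements of ABCG2 at -198, -163 and -121. The GENCODE 29 start used to choose each window lay 189 (ABCB1), 92 (ABCC2) and 3 bases (ABCG2) from that RefSeq start. Searched on both strands of 35116 RefSeq windows of 250 bases, the GC box was in 42.6%, CCAAT in 32.0%, GCGTG in 32.2%, the TATA box in 10.7%, the E box in 6.34% and an antioxidant response core (TGACNNNGC) in 10.9%. TGACNNNGC can hold GCGTG on its other strand, and no other motif can hold another. The whole ABCB1 window, of which only part is shown, held CCAAT at 2 places and GCGTG at 1. A second ABCB1 window, at an upstream start, held none of the 6 motifs. Of the 5 ABCG2 windows, the one shown and an overlapping one held all 3 of the elements marked, 1 held only GCGTG, and 2 held none of the 6 motifs. The ABCC4 window held GCGTG at 2 places and TGACNNNGC at 1, and the ABCC5 window held 1 GC box and 1 TATA box. These matches describe letters, not bound sites.

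Per kilobase of exon, ABCC1 and ABCC3 carried most of the transporter RNA in SKOV3 and ABCC1 alone did in OVCAR3, and ABCB1, ABCC2 and ABCG2 were a small part. Levels between genes are given as FPKM, the CPM divided by the exonic length in kilobases. The 7 genes summed to 38.3 ± 4.33 FPKM with RSF1, 43.8 ± 0.297 FPKM with RSF1delUAB and 34.9 ± 0.638 FPKM with control vector (SD, n = 3 each). In OVCAR3 the sum was 27.3 ± 2.33 FPKM with the UAB peptide and 39.7 ± 3.00 FPKM with the scrambled control (SD, n = 2 each). ABCC1 and ABCC3 together made 75.8% of the sum with RSF1, 79.6% with RSF1delUAB and 61.2% with control vector. In the control SKOV3 libraries ABCG2 was 6.23% and ABCC2 4.78% of the sum, against 0.957% and 0.482% with RSF1 and 0.392% and 0.348% with RSF1delUAB. In OVCAR3, ABCC1 alone made 75.4% of the sum with the UAB peptide and 77.9% with the scrambled control, and ABCC3 was a minor part.

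**Figure D1:**
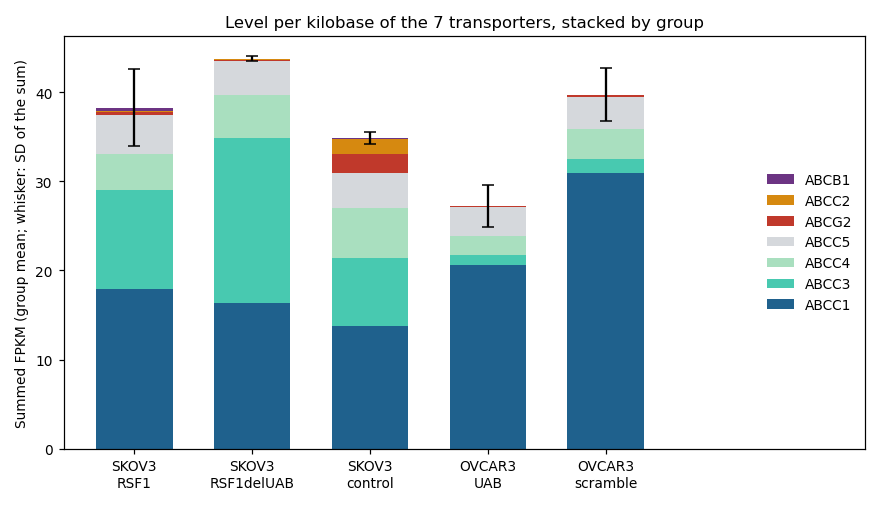
Stacked group means of the level per kilobase (FPKM) of the 7 transporters in the 5 groups; whiskers are the SD of the sum over libraries. ABCC1 is the largest block except in RSF1delUAB, where ABCC3 reaches 18.6 FPKM against 16.3 FPKM for ABCC1.

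With both RSF1 constructs ABCG2, ABCC2 and ABCC4 fell and ABCC1 and ABCC3 rose relative to control vector, in the fit across all genes. The fall of ABCC4 with RSF1delUAB passed only narrowly (adjusted p = 0.0483, edgeR). ABCB1 went opposite ways: it rose with RSF1 and was almost absent with RSF1delUAB. Of the 7 transporters, 3 rose, 3 fell and 1 did not pass in RSF1 against control, where 34.3% of all tested genes were called higher, 32.9% lower and 67.3% in either direction (edgeR quasi-likelihood test, adjusted p under 0.05). In RSF1delUAB against control 2 rose, 4 fell and 1 did not pass, with 34.5% of all genes called higher, 32.1% lower and 66.6% in all. Both comparisons use the same 3 control libraries. In RSF1 against RSF1delUAB 2 were higher, 1 was lower and 4 did not pass, with 18.5% of all genes called higher, 20.2% lower and 38.6% in all. Each SKOV3 comparison counts ABCB1 as called, though it passed the filter on low counts only through the RSF1 libraries, where it was highest. In OVCAR3, 0 rose and 3 fell of the 5 that passed the filter on low counts, while 5.45% of all genes were called higher, 5.46% lower and 10.9% in all. One of the 3, ABCG2, passed the filter only through the scrambled libraries, and its call was lost with DESeq2 and without any 1 library. Of the others, 2 did not pass the test and ABCB1 and ABCC2 were not tested. Single libraries moved these counts: without RSF1 replicate 1, 4 were higher in RSF1 than in RSF1delUAB, and without RSF1 replicate 2, 2 were lower. In RSF1delUAB against control only 3 fell whichever of the libraries compared was left out, as the ABCC4 call was lost. Without RSF1delUAB replicate 3 or control replicate 3 only 1 rose in that comparison. Without UAB replicate 2 or scrambled replicate 2 only 1 fell in OVCAR3. With most genes called in the SKOV3 comparisons with control, the number of calls does not set the transporters apart there. The median log2 fold change of the 7 was 0.14 in RSF1 against control, -0.23 in RSF1delUAB against control and 0.20 in RSF1 against RSF1delUAB. It was -0.59 for the 5 tested with the UAB peptide. The median over all tested genes was 0.02, 0.02, 0.00 and 0.01 in these 4 comparisons.

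**Figure D2:**
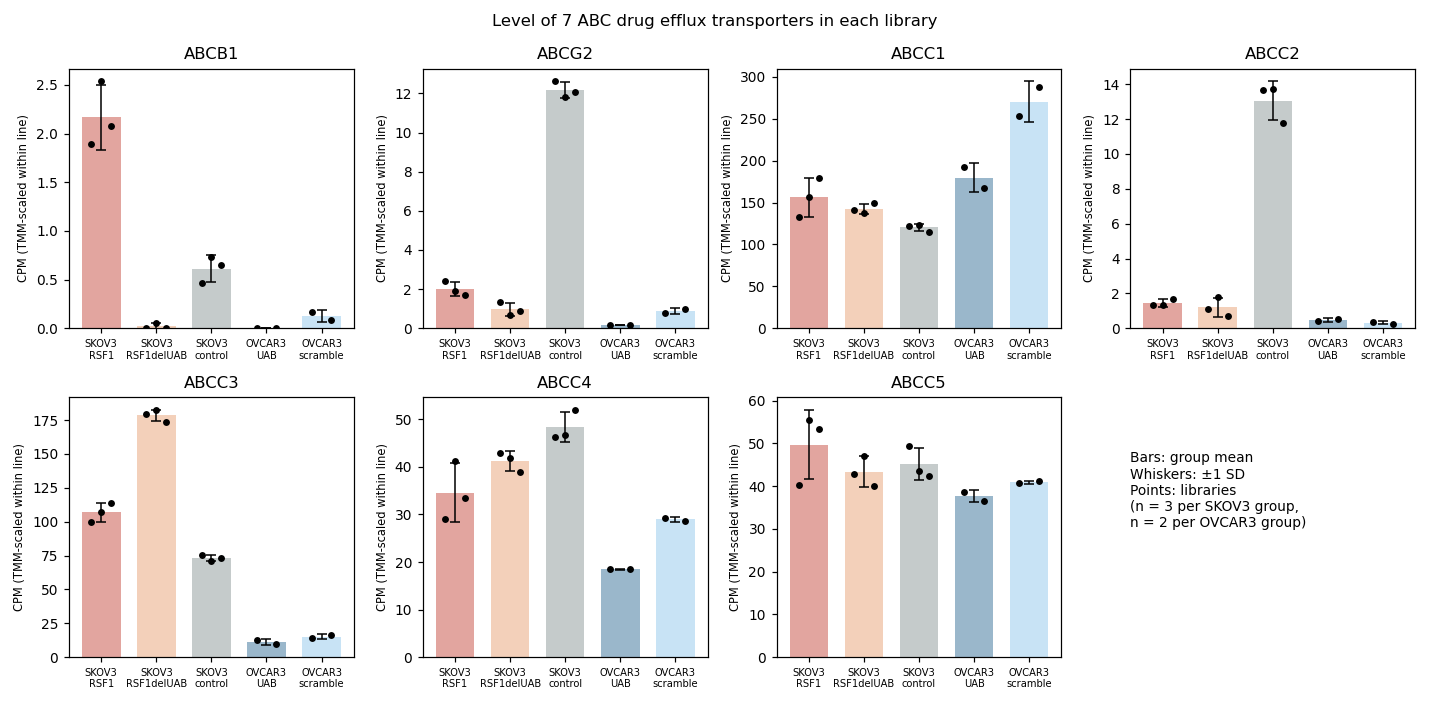
Level of each transporter (CPM, TMM-scaled within each line) in the 13 libraries; bars are group means, whiskers the SD and points libraries. ABCB1 is at 1.89 CPM or more only in RSF1 libraries, and ABCC2 and ABCG2 are at 11.8 CPM or more only in control SKOV3 libraries.

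ABCB1 (ENSG00000085563, chromosome 7, 87503017 to 87713323 on GRCh38, minus strand) had 29, 40 and 33 counts in RSF1 libraries, 0, 1 and 0 counts in RSF1delUAB libraries and 7, 11 and 10 counts in control libraries. These are levels of 1.89, 2.54 and 2.07 CPM with RSF1, 0, 0.0578 and 0 CPM with RSF1delUAB, and 0.463, 0.730 and 0.646 CPM with control vector. No 2 of the 3 groups overlapped. The gene rose with RSF1 by 1.81 ± 0.373 on the log2 scale (SE, adjusted p = 0.000249, edgeR), a 3.51-fold difference. It fell with RSF1delUAB (adjusted p = 5.65e-05, edgeR), and the ratio of control over RSF1delUAB was 32.1 with a 95% exact counting interval of 5.31 to 1313. RSF1 over RSF1delUAB gave a ratio of 114 (95% exact counting interval 19.9 to 4532, adjusted p = 1.36e-07, edgeR), both resting on the single RSF1delUAB count. Counting intervals cover counting error only. ABCB1 passed the filter only through its RSF1 libraries, where it was highest, and it was not tested when the RSF1 libraries were left out of the fit. Its differences are therefore to be read from the counts and levels, not from the p-values. In bulk RNA, fewer cells that express a gene and less RNA per cell cannot be told apart. Of the 50-base stretches of ABCB1 transcripts, 2.02% also occurred in the paralog ABCB4, and of 100-base stretches 0.384%, so few reads could be shared with that gene.

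In OVCAR3, ABCB1 was near the limit of detection. It had 0 and 0 counts with the UAB peptide, where 3 counts over the group would be 0.0775 CPM, against 4 and 2 counts (0.171 and 0.0864 CPM) with the scrambled control. The 95% exact counting intervals overlapped, reaching 0.0953 CPM with the UAB peptide and running from 0.0473 to 0.281 CPM with the scrambled control. Such overlap does not show that the levels were alike, and with so few counts no test of a difference was made. Across the 5 groups the order of ABCB1 levels was SKOV3 with RSF1, SKOV3 control, OVCAR3 scrambled, SKOV3 with RSF1delUAB and OVCAR3 with UAB peptide. Of the neighbours in that order, the lowest pair overlapped.

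ABCG2 (ENSG00000118777, chromosome 4, 88090150 to 88231628, minus strand) had 2.41, 1.91 and 1.70 CPM in RSF1 libraries and 1.33, 0.693 and 0.862 CPM in RSF1delUAB libraries, against 12.6, 11.8 and 12.1 CPM in control libraries. Every construct library was far under every control library, and the RSF1 libraries were above the RSF1delUAB libraries. Its log2 fold change was -2.60 ± 0.192 in RSF1 against control (adjusted p = 2.64e-10, edgeR), a level 6.06-fold lower. In RSF1delUAB against control it was -3.64 ± 0.212 (adjusted p = 7.18e-12, edgeR), a level 12.4-fold lower. The difference between the constructs passed the test itself, with RSF1 at 1.04 ± 0.269 on the log2 scale above RSF1delUAB (adjusted p = 0.00427, edgeR).

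With the UAB peptide in OVCAR3, ABCG2 fell to 3 and 3 counts (0.147 and 0.164 CPM), against 18 and 23 counts (0.769 and 0.994 CPM) with the scrambled control. The groups did not overlap, and the log2 fold change was -2.46 ± 0.697 (adjusted p = 0.0349, edgeR). The counts gave a ratio of scrambled over UAB of 5.69 (95% exact counting interval 2.40 to 16.4). ABCG2 passed the filter only through the scrambled libraries. The call did not pass with DESeq2 (adjusted p = 0.168), nor without any 1 of the 4 libraries (adjusted p = 0.0916 to 0.225, edgeR). Across the 5 groups ABCG2 was highest in SKOV3 control, then in SKOV3 with RSF1, SKOV3 with RSF1delUAB, OVCAR3 scrambled and OVCAR3 with UAB peptide. Only the RSF1delUAB and scrambled groups overlapped among neighbours.

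ABCC1 (ENSG00000103222, chromosome 16, 15949138 to 16143257, plus strand), also called MRP1, was the most abundant transporter per kilobase in 4 of the 5 groups. RSF1 libraries had 133, 156 and 179 CPM, RSF1delUAB libraries 141, 137 and 149 CPM and control libraries 122, 123 and 115 CPM. Each construct library was above each control library, by a small margin for RSF1 replicate 1. ABCC1 rose by 0.38 ± 0.0846 on the log2 scale with RSF1 (adjusted p = 0.000552, edgeR) and by 0.24 ± 0.0845 with RSF1delUAB (adjusted p = 0.0153, edgeR). The call with RSF1delUAB did not pass without RSF1delUAB replicate 3 (adjusted p = 0.0685) or control replicate 3 (adjusted p = 0.0666, edgeR). RSF1 against RSF1delUAB gave 0.13 (adjusted p = 0.226, edgeR), but 0.23 without RSF1 replicate 1, which passed (adjusted p = 0.000823, edgeR).

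In OVCAR3, ABCC1 was lower with the UAB peptide, at 192 and 167 CPM, against 253 and 288 CPM with the scrambled control. The groups did not overlap. The log2 fold change was -0.59 ± 0.136 (adjusted p = 0.0115, edgeR), a level 1.51-fold lower, and it did not pass without UAB replicate 2 (adjusted p = 0.0778) or scrambled replicate 2 (adjusted p = 0.0634, edgeR). Across the 5 groups ABCC1 was highest in OVCAR3 scrambled, then in OVCAR3 with UAB peptide, SKOV3 with RSF1, SKOV3 with RSF1delUAB and SKOV3 control. The UAB and RSF1 groups overlapped, as did RSF1 and RSF1delUAB.

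ABCC2 (ENSG00000023839, chromosome 10, 99782640 to 99852594, plus strand), also called MRP2 and known from the bile canaliculus of the liver, had 1.30, 1.33 and 1.70 CPM with RSF1 and 1.12, 1.79 and 0.678 CPM with RSF1delUAB, set against 13.7, 13.7 and 11.8 CPM with control vector. All construct libraries were under all control libraries, and the 2 construct groups overlapped. It fell by 3.17 ± 0.220 on the log2 scale with RSF1 (adjusted p = 1.08e-10, edgeR), 8.99-fold lower. With RSF1delUAB the log2 fold change was -3.43 ± 0.222 (adjusted p = 3.58e-11, edgeR), 10.8-fold lower. RSF1 against RSF1delUAB gave 0.27 ± 0.301 and did not pass (adjusted p = 0.525, edgeR). In OVCAR3 it had 8 and 10 counts with the UAB peptide and 9 and 6 counts with the scrambled control. That ratio was 1.44, with a 95% exact counting interval of 0.686 to 3.07, and it was under the filter for testing.

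ABCC3 (ENSG00000108846, chromosome 17, 50634777 to 50692253, plus strand), also called MRP3 and an exporter of glucuronides, separated all 3 SKOV3 groups. Its RSF1 libraries stood at 99.8, 107 and 114 CPM and its RSF1delUAB libraries at 179, 182 and 174 CPM, against 75.1, 70.9 and 72.9 CPM with control vector. None of these groups overlapped, and the deletion construct was the highest. ABCC3 rose by 0.55 ± 0.0680 on the log2 scale with RSF1 (adjusted p = 4.96e-07, edgeR) and by 1.29 ± 0.0677 with RSF1delUAB (adjusted p = 1.42e-12, edgeR), which is 2.44-fold. RSF1 against RSF1delUAB was -0.74 ± 0.0662 (adjusted p = 2.30e-08, edgeR). It was the 1 transporter lower in RSF1 than in RSF1delUAB.

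OVCAR3 had little ABCC3, at 12.5 and 9.66 CPM with the UAB peptide and 13.9 and 16.5 CPM with the scrambled control. The groups did not overlap, but the log2 fold change of -0.45 ± 0.189 did not pass (adjusted p = 0.153, edgeR). The order of the 5 groups was SKOV3 with RSF1delUAB, SKOV3 with RSF1, SKOV3 control, OVCAR3 scrambled and OVCAR3 with UAB peptide, and no neighbours overlapped.

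ABCC4 (ENSG00000125257, chromosome 13, 95019835 to 95301475, minus strand), the cyclic nucleotide exporter MRP4, had 29.01, 41.3 and 33.4 CPM with RSF1 and 43.0, 41.8 and 38.9 CPM with RSF1delUAB, set against 46.4, 46.8 and 52.0 CPM with control vector. Construct libraries were all under control libraries, and the 2 construct groups overlapped. It fell by 0.48 ± 0.102 on the log2 scale with RSF1 (adjusted p = 0.000308, edgeR). With RSF1delUAB the log2 fold change of -0.23 ± 0.100 passed narrowly (adjusted p = 0.0483, edgeR). That call ended with DESeq2 (adjusted p = 0.101), upper-quartile scaling (0.0995), a minimum count of 30 (0.0569) and without any 1 of the 6 libraries compared (0.0576 to 0.192, edgeR). RSF1 against RSF1delUAB gave -0.25 ± 0.102 and did not pass (adjusted p = 0.0559, edgeR), but without RSF1 replicate 2, the highest RSF1 library, it was -0.39 and passed (adjusted p = 0.00308, edgeR).

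In OVCAR3, ABCC4 was lower with the UAB peptide, at 18.4 and 18.5 CPM, against 29.3 and 28.6 CPM with the scrambled control. The groups were well apart. The log2 fold change was -0.65 ± 0.148 (adjusted p = 0.0110, edgeR), 1.57-fold lower, and this was the OVCAR3 transporter call that passed under every alternative run (adjusted p at most 0.0386). Across the 5 groups ABCC4 was highest in SKOV3 control, then in SKOV3 with RSF1delUAB, SKOV3 with RSF1, OVCAR3 scrambled and OVCAR3 with UAB peptide, and RSF1 overlapped both its neighbours.

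ABCC5 (ENSG00000114770, chromosome 3, 183919934 to 184017939, minus strand), the exporter MRP5, was the most even of the 7. It had 40.4, 55.4 and 53.3 CPM with RSF1 and 42.9, 47.1 and 39.9 CPM with RSF1delUAB, set against 49.4, 43.6 and 42.4 CPM with control vector. All 3 groups overlapped. No SKOV3 comparison passed: the log2 fold change was 0.14 ± 0.104 in RSF1 against control (adjusted p = 0.245), -0.06 ± 0.104 in RSF1delUAB against control (adjusted p = 0.634) and 0.20 ± 0.103 in RSF1 against RSF1delUAB (adjusted p = 0.142, edgeR). RSF1 replicate 1 decided 2 of these: without it RSF1 against control was 0.27 (adjusted p = 0.00239) and RSF1 against RSF1delUAB 0.32 (adjusted p = 0.000533, edgeR). In OVCAR3 it had 38.6 and 36.6 CPM with the UAB peptide and 40.6 and 41.2 CPM with the scrambled control, and its log2 fold change of -0.12 missed the threshold (adjusted p = 0.649, edgeR). In the order of groups the 3 SKOV3 groups came first, and RSF1delUAB overlapped OVCAR3 scrambled.

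**Figure D3:**
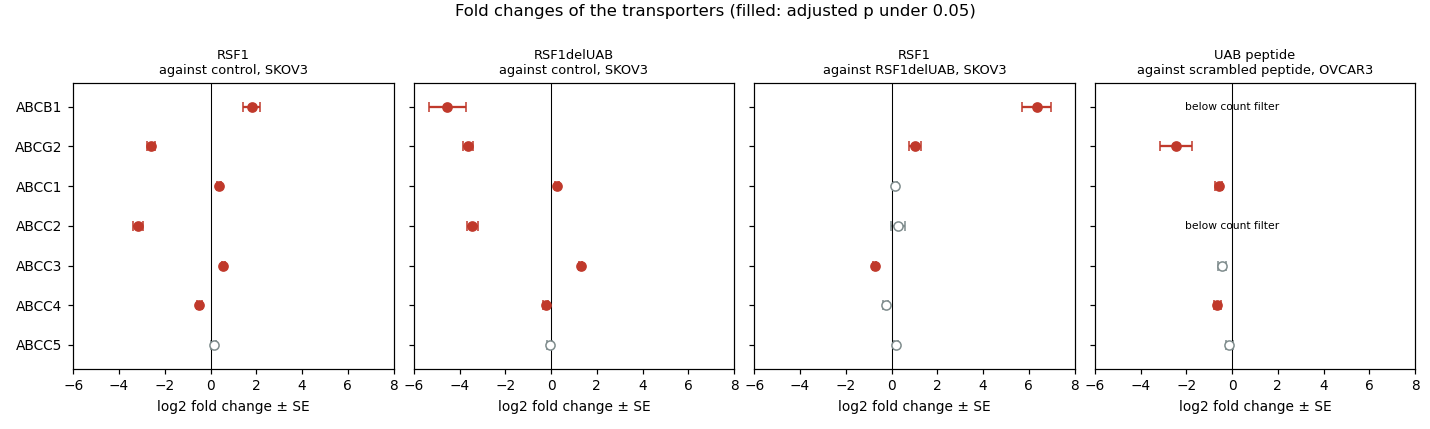
Log2 fold change with its SE of each transporter in the 4 comparisons; filled points have an adjusted p under 0.05. ABCG2 lies left of 0 in all 3 comparisons with a control and ABCC5 is open throughout; the ABCB1 points for RSF1delUAB rest on 1 count.

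Orders of levels across lines used 2 tables scaled separately. With all 13 libraries scaled together the order of the 5 groups stayed the same for each transporter. ABCC4 with RSF1 and ABCC5 with RSF1delUAB then no longer overlapped OVCAR3 scrambled.

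The transporters lie on 7 chromosomes, and each was read beside the tested genes around it, with no test. Within 10 Mb of ABCG2, the 65 tested genes had a median log2 fold change of -0.60 in RSF1 against control and -0.57 in RSF1delUAB against control, and the medians of chromosome 4 were -0.61 and -0.72. ABCG2 was below 64 of those 65 genes in each comparison. The nearest tested neighbours of ABCG2 were PKD2, a calcium channel gene (-0.86 with RSF1, adjusted p = 7.77e-10, and -0.07 with RSF1delUAB, adjusted p = 0.371, edgeR), and the phosphatase gene PPM1K (-1.83 and -1.27, adjusted p = 2.06e-10 and 1.86e-08, edgeR). In OVCAR3, where the window median was -0.06, ABCG2 was below all 64 tested genes around it, a rank that rests on 6 UAB counts in a gene that passed the filter only through the scrambled libraries.

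ABCC4 lay nearer the middle of its window in SKOV3. Its log2 fold changes of -0.48 with RSF1 and -0.23 with RSF1delUAB stood beside window medians of -0.38 and -0.58 over 38 genes, and 17 and 23 of the genes were lower than ABCC4. In OVCAR3 its window had a median of 0.19, and 39 of 41 genes were above it. For ABCC5 the window median over 93 genes was 0.43 with RSF1 and 0.29 with RSF1delUAB, above its own values. Whether copy number differs between the groups was not tested.

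ABCC2 was below 134 of 137 genes around it with RSF1 and below 135 with RSF1delUAB, where the window median was -0.25 in both. ABCB1 was above 57 of 60 surrounding genes with RSF1 and below 59 of them with RSF1delUAB, with window medians of -0.00 and -0.06. Both ranks belong to a gene that passed the filter only through the RSF1 libraries, where it was highest. The rank with RSF1delUAB rests on 1 count, so neither rank is evidence of its own. RUNDC3B, which overlaps ABCB1 on the other strand but shares no exonic base with it, fell with both constructs (-2.99 with RSF1, adjusted p = 3.70e-08, and -2.53 with RSF1delUAB, adjusted p = 1.38e-07, edgeR). ABCB1 and RUNDC3B thus had opposite signs with RSF1. ABCC3 was above 212 of 286 genes around it with RSF1 and 233 with RSF1delUAB. In OVCAR3 ABCC1 was below 104 of 130 genes around it, in a window with a median of -0.32.

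**Figure D4:**
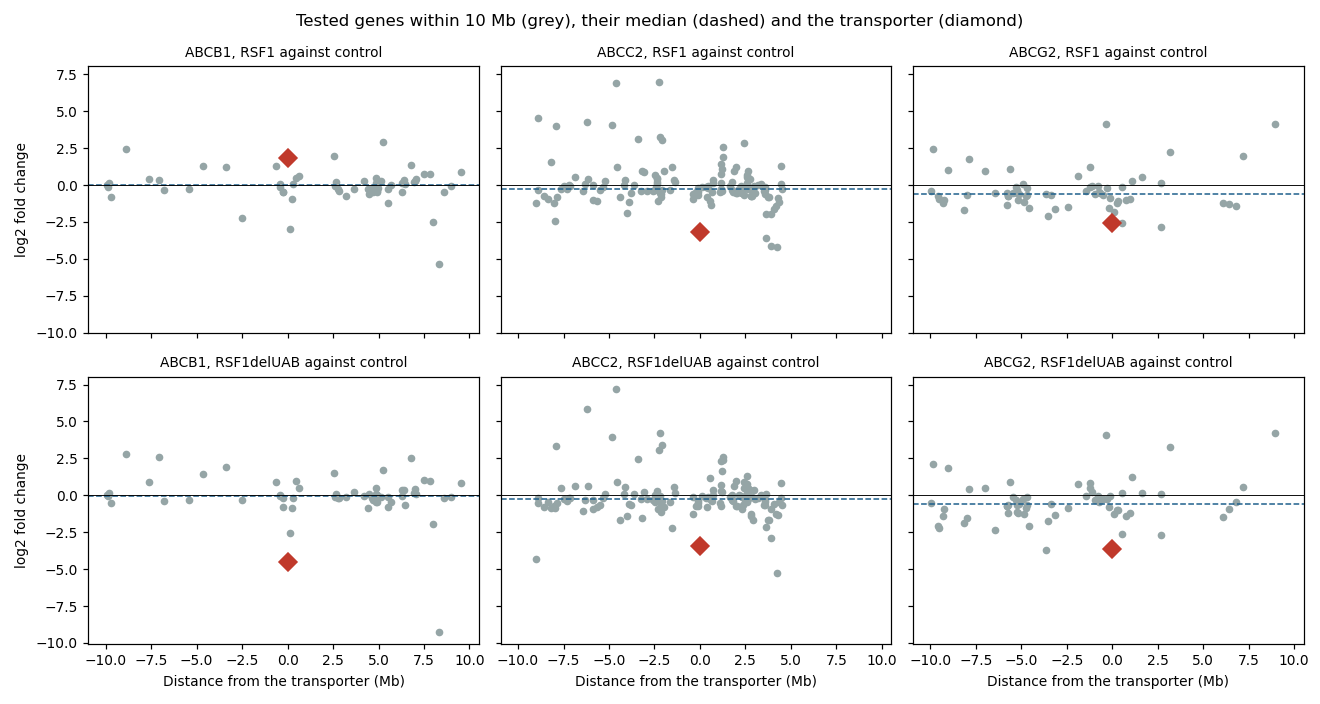
Log2 fold change of the tested genes within 10 Mb of ABCB1, ABCC2 and ABCG2 (grey), by distance from the transporter in Mb, for RSF1 against control (top) and RSF1delUAB against control (bottom); dashed lines are window medians and diamonds the transporters. ABCG2 and ABCC2 lie near the bottom of their windows in both rows. ABCB1 lies near the top in the upper row and near the bottom in the lower row, but it passed the filter only through RSF1 libraries.

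For the 5 transporters tested in both lines, the genes with the most similar pattern were sought over the 13 libraries, by the root mean square difference of log2 CPM centred on each line. Among 10150 candidates ABCC1 was closest to MCCC2, a mitochondrial carboxylase subunit gene (0.0672), then to DCBLD1 and TSPAN14. ABCC3 was closest to GALNT10, a glycosyltransferase gene (0.1245), then to PLXND1 and PI4KA, and ABCC4 to the transcription factor gene KLF7 (0.0941), then IFIT5 and CRLF3. ABCC5 was closest to the RNA-binding protein gene CELF1 (0.0845), followed by ZNFX1 and SPTAN1. For ABCG2 the first gene was the laminin gene LAMA3, at 0.439, followed by GPRC5A and F3. That larger distance does not set ABCG2 apart, because the measure grows with the size of the changes and with counting noise. Candidates also needed a mean log2 CPM of at least 2 in each line, which was above the level of ABCG2 in OVCAR3.

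Other ABC genes were read beside the 7, from lists chosen by function. Their counts are to be read against the shares of all genes called, which were 34.3% higher and 32.9% lower in RSF1 against control, 34.5% and 32.1% in RSF1delUAB against control, and 5.45% and 5.46% with the UAB peptide. Of 10 further multidrug-type transporters 3 passed the filter in SKOV3, and 2 of these, ABCC6 and ABCC8, passed it only through the construct libraries, so their rise is given as levels and not as a test. ABCC6, next to ABCC1 on chromosome 16, reached 3.42 ± 0.384 CPM with RSF1 and 1.82 ± 0.788 CPM with RSF1delUAB, set against 0.108 ± 0.187 CPM with control vector. Its value is uncertain because near-identical pseudogenes can share its reads. ABCC8, a subunit of the potassium channel of insulin-secreting cells, was at 5.28 to 6.10 CPM with RSF1 and 4.56 to 5.16 CPM with RSF1delUAB, and at 0.199 to 0.794 CPM with control vector. ABCB11, the bile salt export pump, was at 0 in every SKOV3 library. With the UAB peptide, 4 of the 10 were tested and 0 were called in either direction.

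Of 11 tested sterol and lipid transporters, 5 rose and 4 fell with RSF1 and 4 rose and 4 fell with RSF1delUAB, where 67.3% and 66.6% of all genes were called in either direction. These and the later list counts include members that passed the filter only through the libraries where they are high. Among those that rose, ABCA4, ABCA9 and ABCA13 had at most 0.397, 0.517 and 0.0664 CPM in control libraries and passed only through construct libraries. ABCA3, the surfactant lipid transporter, was 6.87 ± 1.54 CPM with RSF1 and 17.8 ± 0.739 CPM with RSF1delUAB, set against 3.70 ± 0.156 CPM with control vector. Its order across the SKOV3 groups was like that of ABCC3. Unlike ABCC3, it was higher in OVCAR3, at 47.0 ± 4.07 CPM with the UAB peptide and 58.5 ± 1.59 CPM with the scrambled control. With the UAB peptide 3 of 10 rose and 2 fell, among them the cholesterol exporters ABCA1 (0.90, adjusted p = 0.0296) and ABCG1 (0.94, adjusted p = 0.0233), which rose, and the skin lipid transporter ABCA12 (-1.79, adjusted p = 0.000565, edgeR). Of 9 tested organelle half-transporters, 3 rose and 5 fell with RSF1 and 3 rose and 4 fell with RSF1delUAB, beside the same 67.3% and 66.6% over all genes. TAP1, which carries peptides for antigen presentation, rose by 0.78 with RSF1 and 1.34 with RSF1delUAB and fell by 1.18 with the UAB peptide (adjusted p = 1.01e-08, 2.10e-12 and 0.000701, edgeR), the 1 of 10 called in OVCAR3. Of the 4 ABC proteins that do not transport, ABCE1 and ABCF1, both tied to ribosomes, fell with both constructs; 1 rose and 2 fell with RSF1, 1 rose and 3 fell with RSF1delUAB, and 0 were called with the UAB peptide.

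**Figure D5:**
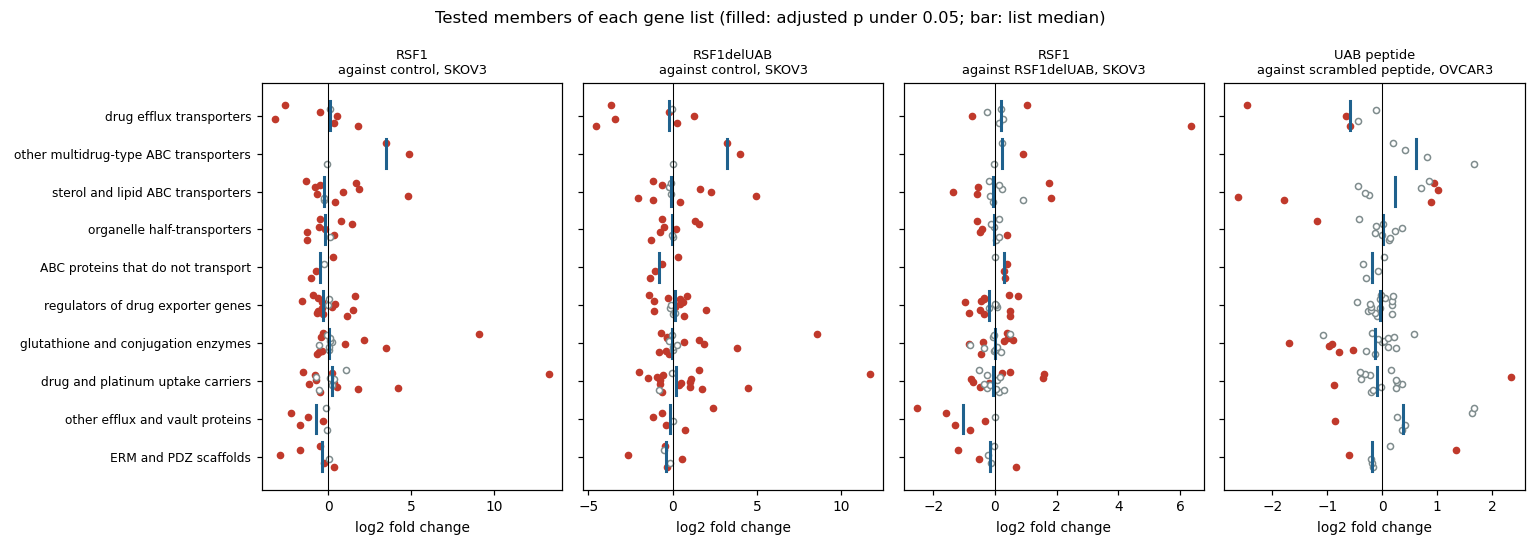
Log2 fold change of the tested members of the transporter list and 9 further lists in the 4 comparisons; filled points have an adjusted p under 0.05 and bars are list medians. The 7 transporters spread to both sides of 0 in the SKOV3 comparisons, and all 5 tested transporters lie left of 0 with the UAB peptide.

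Of 15 tested regulators of exporter genes, 5 rose and 8 fell with RSF1 (median -0.32), 7 rose and 4 fell with RSF1delUAB (median 0.15), and 0 were called with the UAB peptide. The shares over all genes were 34.3% higher and 32.9% lower with RSF1 and 34.5% and 32.1% with RSF1delUAB. YBX1, a Y-box protein known for binding a CCAAT-type element of ABCB1, fell by 0.92 with RSF1 and 1.38 with RSF1delUAB (adjusted p = 3.80e-11 and 7.84e-14, edgeR). Whether the CCAAT marked above is that element was not tested. PPARG, a nuclear receptor, fell by 1.56 and 1.10, and FOXO1 rose by 1.48 and 1.95 on the log2 scale (adjusted p at most 1.86e-10, edgeR). AHR, the receptor that binds GCGTG cores, rose by 1.15 with RSF1 and 0.66 with RSF1delUAB (adjusted p = 1.40e-07 and 0.00019, edgeR).

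Of 16 tested glutathione and conjugation enzymes, which make the substrates of ABCC1 to ABCC3, 4 rose and 5 fell with RSF1 and 5 rose and 6 fell with RSF1delUAB, with 67.3% and 66.6% of all genes called. UGT1A6, among those that rose, was at 0 in every control library and passed the filter only through construct libraries. GSTP1, a glutathione transferase, was 597 ± 83.4 CPM with RSF1 and 397 ± 13.4 CPM with RSF1delUAB, set against 133 ± 6.66 CPM with control vector (adjusted p = 9.51e-15 and 1.16e-12, edgeR). GCLM, a subunit of the enzyme that starts glutathione synthesis, fell by 0.58 and 0.78 (adjusted p = 2.71e-06 and 4.01e-08, edgeR). With the UAB peptide 5 of 17 fell and 0 rose, beside 5.46% and 5.45% of all genes, among them GSTM2, GSTM3 and GSTM4 (-0.97, -0.91 and -1.70, adjusted p at most 0.00306, edgeR), which are close paralogs and uncertain.

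Of 18 tested uptake carriers, 7 rose and 5 fell with RSF1 and 9 rose and 7 fell with RSF1delUAB, again beside 67.3% and 66.6% of all genes called. SLC31A1, a copper carrier also known for taking up platinum drugs, fell by 0.70 and 0.78 (adjusted p = 2.36e-08 and 5.01e-09, edgeR). SLCO4A1 fell by 1.53 and 2.02 (adjusted p = 6.05e-13 and 1.03e-14, edgeR), and SLC29A1 rose by 0.33 and 0.51 (adjusted p = 0.00021 and 1.04e-06, edgeR). SLCO2B1 was at 0 in control libraries, 77.1 ± 10.5 CPM with RSF1 and 25.7 ± 1.48 CPM with RSF1delUAB. It passed the filter only through construct libraries, as did SLC22A3, which also rose. Of 6 other efflux and vault proteins, 0 rose and 4 fell with RSF1 (median -0.74), and 2 rose and 3 fell with RSF1delUAB (median -0.19), beside 34.3% and 32.9% of all genes with RSF1 and 34.5% and 32.1% with RSF1delUAB. ATP7B, a copper exporter, was 7.81 ± 1.84 CPM with RSF1 and 19.0 ± 1.05 CPM with RSF1delUAB, set against 24.9 ± 3.41 CPM with control vector, and RSF1 was lower than RSF1delUAB (-1.28, adjusted p = 5.01e-07, edgeR). MVP, the major vault protein, fell with the UAB peptide (-0.86, adjusted p = 0.00342, edgeR), the 1 of 6 called there. Of 6 ERM and PDZ scaffold genes, which tether transporters at the membrane, 1 rose and 4 fell with RSF1, 1 rose and 3 fell with RSF1delUAB, and 1 rose and 1 fell with the UAB peptide, where 67.3%, 66.6% and 10.9% of all genes were called. NHERF2 fell in all 3, with a log2 fold change of -2.88 for RSF1, -2.68 for RSF1delUAB and -0.61 for the UAB peptide (adjusted p = 6.29e-16, 1.26e-15 and 0.0155, edgeR).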

How the data were processed

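Per the labels' protocols, poly-A RNA was captured and copied with random hexamers. The values deposited by the authors are raw read counts for each gene, as whole numbers, with 1 file for each line. The submitters' processing notes name FastQC, STAR 2.7.9a, Subread and the builds GRCh38, hg38 and GRCm38. No source used here gives the annotation release or strand setting. A record of each file that was split over 3 lines was rejoined. For the second OVCAR3 control library, 1 letter of the column name is explained by no label.

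SKOV3 and OVCAR3 were analysed separately in edgeR 4.0.16 (R 4.3.3): TMM scaling, a minimum count of 10 in filterByExpr, a quasi-likelihood test, and Benjamini-Hochberg adjustment over 16735 genes in SKOV3 and 18359 in OVCAR3 (6 and 2 residual degrees of freedom). The prior count was 0.125, and an SE is the size of the log2 fold change divided by the square root of F. The fits were tested on simulated data. CPM and FPKM were computed from the deposited counts and exonic lengths. Alternatives were other scalings and filters, DESeq2 1.42.0, fits of 6 libraries, replicate blocks, and each replicate left out.

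The transporters, the 9 further lists (116 genes) and the alternatives were chosen with earlier results of these data known. Named are all 7 transporters, from each list members among the 3 higher and 3 lower with the smallest adjusted p, the nearest tested neighbours, and the 3 genes most like each transporter with a mean log2 CPM of at least 2. List medians and counts carry no test.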

Additional observations from a re-analysis of the deposited data

How the results depend on the processing

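Over the 326 refits of single transporters, 299 kept direction and call, 18 lost the call, 7 gained it and 2 changed sign. The sign changed only for ABCC5 in RSF1delUAB against control, to 0.00033 without RSF1delUAB replicate 3 and 0.0127 without control replicate 1, with a range of -0.11 to 0.0127 over the libraries left out, never called. Transporters lower in RSF1 than in RSF1delUAB numbered 2 without a filter and 2 with the replicate block, ABCC4 being added (adjusted p = 0.0347 and 0.0442, edgeR). With each library left out in turn, 2 to 4 were higher and 1 to 2 lower in RSF1 against RSF1delUAB, 3 to 4 higher and 3 lower in RSF1 against control, 1 to 2 higher and 3 lower in RSF1delUAB against control, and 0 higher and 1 to 2 lower in OVCAR3. Genes called then ranged over 5461 to 7081, 10674 to 11633, 10455 to 10588 and 1340 to 2239. Where OVCAR3 was left with 1 library in a group, that library was assumed to vary like the others. The cause of these shifts was not tested.

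Deviations of same-numbered libraries from their group means correlated at -0.0417 to 0.0712 in SKOV3 and -0.149 in OVCAR3. For libraries with different numbers the values were -0.0800 to 0.0405 and 0.149. Centring 2 libraries a group forces equal sizes with opposite signs in OVCAR3, and small groups also constrain the SKOV3 values. This check therefore cannot exclude a batch shared by same-numbered libraries. With the replicate block 11164, 11007, 6333 and 1770 genes were called in the 4 comparisons, against 11261, 11150, 6468 and 2004 without it. A crossed pairing in OVCAR3, added after the data were seen, called 5097 genes.

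Levels changed by more than the SD under joint scaling in 3 of 35 cases. Depth limits ABCB1, ABCC2 and ABCG2 most: ABCB1 with RSF1delUAB rests on 1 count, and in OVCAR3 ABCB1 and ABCC2 fell under the filter. Reads per gene cannot separate isoforms.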
